A study of Drosophila melanogaster with 6 samples.

Results

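The aminoacyl-tRNA synthetase genes of Drosophila melanogaster were followed in whole larvae labelled wild-type and crol-KO. The genes were chosen by symbol, as those in the deposited tables that begin with Aats- or have the form of a synthetase name such as GluProRS, and 22 of 16508 genes matched. The rule used no values, but it was set with earlier results of these data known. By the current symbols of the Release 6 annotation, 15 of the 22 encode cytosolic enzymes and 7 encode mitochondrial ones. The table symbol does not always show this: Aats-ala-m and Aats-tyr-m carry the mitochondrial suffix, but Aats-leu, Aats-met, Aats-phe, Aats-pro and Aats-ser are also mitochondrial genes (LeuRS-m, MetRS-m, PheRS-m, ProRS-m and SerRS-m in the annotation). The 22 genes lie on all major chromosome arms, with 3 on 2L, 5 on 2R, 6 on 3L, 5 on 3R and 3 on X.

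Aminoacyl-tRNA synthetases attach each amino acid to its own tRNA, the step that makes the genetic code readable by the ribosome. They fall into class I and class II by the fold of the catalytic domain, and nuclear genes encode both the cytosolic enzymes and those imported into mitochondria. In mammals, several cytosolic synthetases are held in a multisynthetase complex by scaffold proteins. Every cell needs both sets, and larval growth depends on a high rate of protein synthesis.

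Polyadenylated RNA was taken from third-instar larvae, 40 pooled per sample, in 3 biological repeats per group. The wild-type larvae were of the Oregon strain. The crol-KO allele, a deletion at the gene of the zinc finger protein Crol, was made with CRISPR-Cas9 and marked with DsRed in a line that carries mutations of y, w and DNAlig4 and expresses Cas9 under the Actin5C promoter, crossed to y-w1118 and kept over a CyO balancer that carries w[+mC]. Genotype and strain background therefore cannot be told apart here. Crol protein of maternal origin may remain in the mutant larvae. The sexes of the larvae, their age within the instar and whether mutant larvae were homozygous are not given in the sources used here.

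The libraries held 23637969 to 49236787 expected counts. Sample labels and table names disagree on the genotype, each naming the other one, and the groups below follow the labels. The level of crol was taken in CPM (counts per 1000000, normalized by the TMM method). It was 60.6 to 73.2 in the wild-type-labelled libraries and 37.0 to 42.8 in the crol-KO-labelled ones. The direction follows the labels (log2 fold change -0.73, edgeR adjusted p = 0.0043). The crol transcript was not absent from the crol-KO-labelled libraries, at 0.60 times the wild-type-labelled level. Among all tested genes 17.8% passed the same test as lower, so this difference alone does not settle the genotype. The eye colour gene w was at 0.561 to 0.817 CPM in the wild-type-labelled libraries and at 15.2 to 17.9 CPM in the crol-KO-labelled ones, the opposite of what a w mutant background would give on its own. Every direction below is therefore that of the crol-KO-labelled libraries over the wild-type-labelled ones. Of the larval tissue markers, 6 of 6 midgut proteases were higher (median log2 fold change 1.80) and 4 of 5 neuron genes were lower (median -0.98) in the crol-KO-labelled libraries. Of fat body markers 1 of 6 was higher and 3 lower, of salivary gland markers 1 of 6 was lower, of muscle markers 1 of 4 was higher and of larval cuticle markers 1 of 4 was higher. The shares over all tested genes were 15.3% higher and 17.8% lower. In RNA from whole larvae, fewer cells of a type and less RNA per cell cannot be told apart.

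To set the synthetases beside each other, TPM (transcripts per 1000000) was used, a level per transcript length. Aats-asp, which charges tRNA with aspartate, had the highest level. It stood at 85.5, 92.7 and 75.3 TPM in the wild-type-labelled libraries and at 66.4, 46.9 and 54.1 TPM in the crol-KO-labelled ones. The lowest was Aats-met, the mitochondrial methionyl-tRNA synthetase, at 2.28, 2.61 and 2.19 TPM and at 2.18, 1.29 and 1.29 TPM. Both genes were lower on this scale throughout the crol-KO-labelled libraries than in any wild-type-labelled one, a shift shared with most genes and taken up below.

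The cytosolic genes stood at mean levels of 7.96 to 70.2 TPM over the 6 libraries, with a median of 17.7 TPM. The mitochondrial genes stood at 1.97 to 13.8 TPM, with a median of 3.15 TPM. Only Aats-phe, the mitochondrial phenylalanyl-tRNA synthetase, ranked among the cytosolic genes, at place 13 of 22, while the lowest cytosolic gene, Aats-val, held place 16. After Aats-asp came Aats-thr, Aats-asn, Aats-tyr and Aats-lys, for threonine, asparagine, tyrosine and lysine, at means of 37.6 to 28.4 TPM. Most steps in this order were within the spread of the libraries. Of the 21 neighbouring pairs of genes, the ranges of the libraries overlapped within both groups in 17. The step from Aats-asp to Aats-thr and that from Aats-ser to Aats-leu, the mitochondrial seryl- and leucyl-tRNA synthetases, had no overlap in either group.

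**Figure D1:**
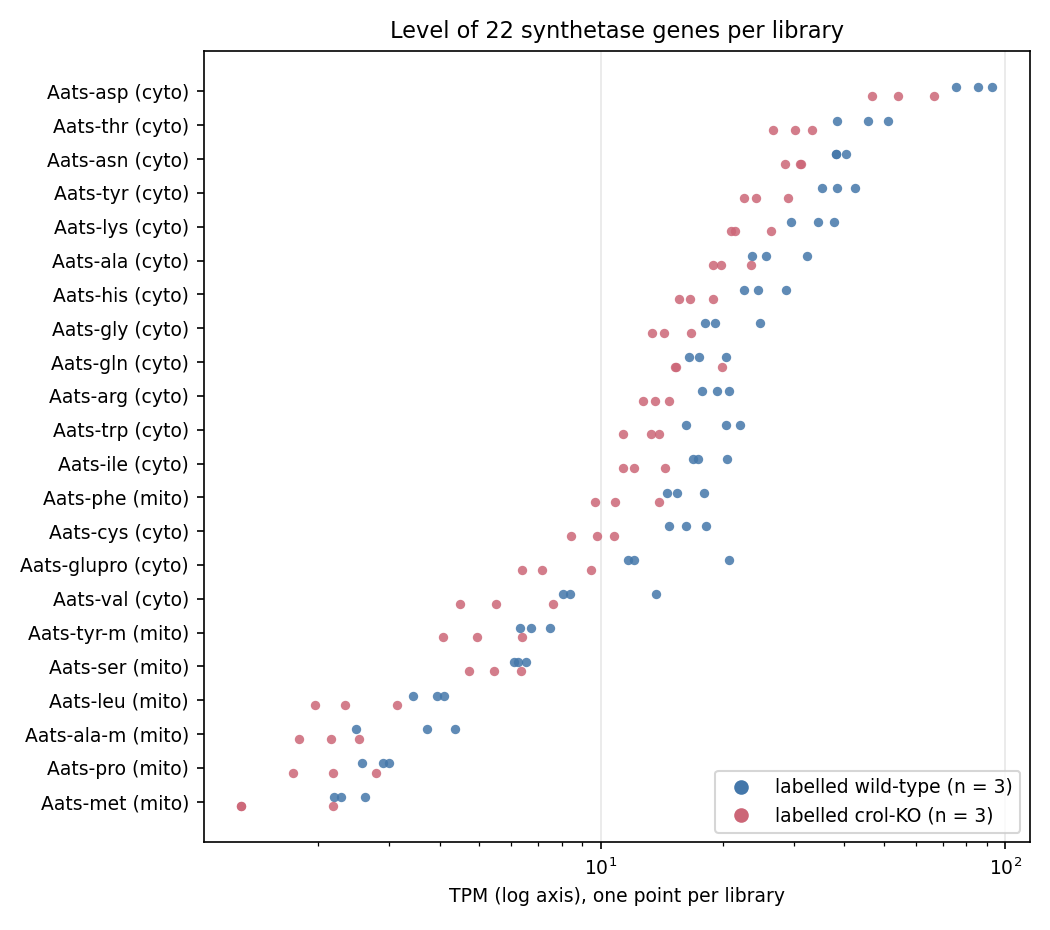
Level of each of the 22 synthetase genes in TPM (log axis), 1 point per library, with 3 wild-type-labelled and 3 crol-KO-labelled libraries; genes are ordered by mean level and marked cyto or mito. Aats-asp stands alone at the top, from 46.9 to 92.7 TPM, and 6 of the 7 mitochondrial genes fill the lowest places.

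The comparison of the groups asks whether the synthetase transcripts changed with the crol-KO label relative to the bulk of the transcriptome. Of the 22 genes, all passed the filter on low counts, with 69 to 6666 counts per library, and 1 passed the test. Aats-gln, the glutaminyl-tRNA synthetase, was higher in the crol-KO-labelled libraries, and no synthetase gene was lower (edgeR's quasi-likelihood test, adjusted p under 0.05 over 12434 genes). Among all tested genes 33.1% passed in either direction, 15.3% higher and 17.8% lower. None of the 22 passed both this test and the fold threshold of an absolute log2 fold change above 1, which 13.6% of tested genes did. At an unadjusted p under 0.05, 3 of the 22 and 5668 of the 12434 genes passed.

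Aats-gln stood at 36.3, 36.9 and 44.6 CPM in the wild-type-labelled libraries and at 60.4, 60.5 and 52.4 CPM in the crol-KO-labelled ones. The groups did not overlap, and the means were 39.3 ± 4.62 and 57.8 ± 4.68 CPM (SD, n = 3 each). The difference was 1.47-fold, a log2 fold change of 0.56 with a standard error of 0.13 and a 95% interval from 0.26 to 0.85 (edgeR adjusted p = 0.0145). The call was lost without wild-type replicate 1 (0.56, adjusted p = 0.0617) and without crol-KO replicate 2 (0.53, adjusted p = 0.0547). It was kept with DESeq2 size factors (0.59, adjusted p = 0.0137) and upper-quartile factors (0.68, adjusted p = 0.00636) and lost with library totals only (0.08, adjusted p = 0.594). On TPM the groups overlapped, at 16.5, 20.4 and 17.5 TPM against 19.95, 15.3 and 15.2 TPM. On the opposite strand, Aats-gln overlaps CG11858, which rose from 18.6, 15.4 and 23.4 CPM to 29.5, 36.9 and 36.5 CPM (log2 fold change 0.84, adjusted p = 0.0097). The library kit marks strand, but the setting with which reads were counted is not given in the sources used here, so reads of the overlapping stretch may belong to either gene, and their part in the difference was not tested.

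The genes nearest to the threshold after Aats-gln were 2 further synthetases, described because of these values. Aats-ser stood at 8.70, 7.66 and 10.4 CPM against 11.9, 11.4 and 12.2 CPM, without overlap (log2 fold change 0.41, standard error 0.14, adjusted p = 0.0552). Aats-ala, the cytosolic alanyl-tRNA synthetase, stood at 72.8, 75.8 and 78.1 CPM against 92.0, 96.7 and 88.1 CPM, also without overlap (log2 fold change 0.29, standard error 0.11, adjusted p = 0.0678). Neither passed the test in the reported fit, although each separated the groups. Among 18 alternative settings, Aats-ala passed as higher in 4 and Aats-ser in 2, and each changed sign in 3. With upper-quartile factors both passed (edgeR adjusted p = 0.0277 for Aats-ser and 0.0248 for Aats-ala). Aats-ala also passed with DESeq2's test (adjusted p = 0.0459). Aats-ser overlaps Nagk, which encodes N-acetylglucosamine kinase, on the opposite strand (log2 fold change of Nagk 0.40, adjusted p = 0.0335), whereas no gene overlaps Aats-ala.

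**Figure D2:**
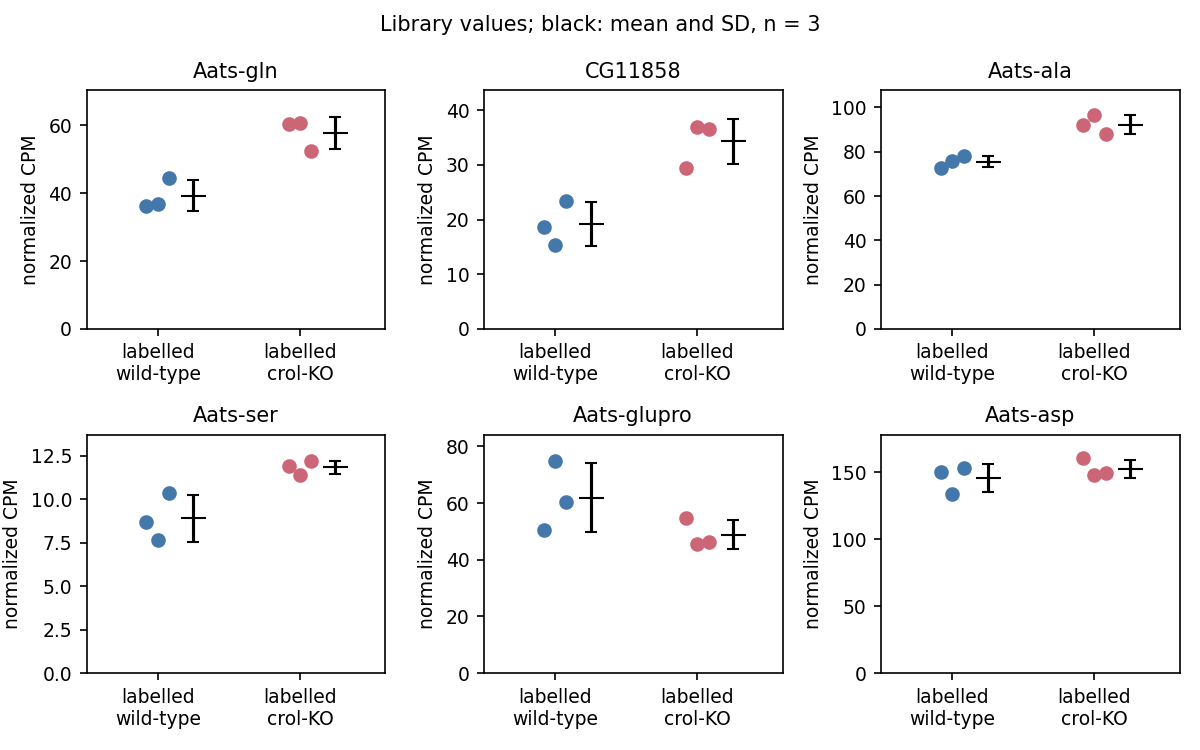
Normalized CPM in each library (points) with mean and SD (black, n = 3) for 5 synthetase genes and for CG11858, which overlaps Aats-gln on the opposite strand. Aats-gln and CG11858 separate the groups, as do Aats-ala and Aats-ser, while the groups overlap for Aats-glupro and Aats-asp.

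In all, 6 of the 22 synthetases separated the groups in CPM, each higher in the crol-KO-labelled libraries, against 50.2% of all tested genes without overlap in either direction. Beside Aats-gln, Aats-ser and Aats-ala these were Aats-gly, for glycine, Aats-phe and Aats-pro, the mitochondrial prolyl-tRNA synthetase. Aats-pro stood at 3.82, 3.26 and 3.96 CPM against 5.07, 4.12 and 4.51 CPM (log2 fold change 0.31, adjusted p = 0.183). None of these last 3 passed the test. CG1246, which overlaps Aats-pro on the other strand, was higher with a log2 fold change of 0.61 (adjusted p = 0.0081).

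In the Release 6 annotation 9 of the 22 synthetase genes overlap a gene on the other strand and 2 a gene on the same strand. Of the partners not yet named, 2 passed the test. CG43179, which overlaps Aats-met, was higher (log2 fold change 1.08, adjusted p = 0.0135), and Bx, a LIM-domain gene that overlaps Aats-his, the histidyl-tRNA synthetase, was lower (-0.84, adjusted p = 0.0387), while Aats-met and Aats-his themselves had estimates of 0.07 and 0.10 and did not pass. The other 6 tested partners did not pass, with log2 fold changes from -0.34 (CG3594, at Aats-tyr-m) to 0.23 (asRNA:CR43468, at Aats-asp). The part of overlapping reads in the synthetase values was not tested.

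The estimated change of most synthetase genes was small. The log2 fold changes ran from -0.34 to 0.56 with a median of 0.10, beside a median of -0.05 over all tested genes. They were above 0 in 18 of 22 synthetase genes and in 46.4% of all tested genes, a count that depends on the scaling. All 22 of the 95% intervals lay within a change of 1 on the log2 scale in either direction, and 19 included 0. The median was 0.10 for the 15 cytosolic genes and 0.18 for the 7 mitochondrial ones, and 0.08 for the 10 class I genes and 0.18 for the 11 class II genes. These medians were not tested against each other.

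Aats-glupro encodes the fused glutamyl-prolyl-tRNA synthetase, whose parts belong to both classes, and had the lowest log2 fold change of the 22. It stood at 50.7, 74.9 and 60.3 CPM in the wild-type-labelled libraries and at 54.8, 45.7 and 46.2 CPM in the crol-KO-labelled ones (log2 fold change -0.34, standard error 0.16, adjusted p = 0.142). The groups overlapped, and wild-type replicate 2 was the highest library. Without it the log2 fold change was -0.15. Aats-val, the valyl-tRNA synthetase, had the same highest library, at 25.4, 34.2 and 28.4 CPM against 31.9, 24.4 and 26.1 CPM (log2 fold change -0.09, adjusted p = 0.665). That library was by contrast the lowest in CPM for 14 of the 22 synthetase genes. The other genes below 0 were Aats-cys, for cysteine, with -0.09, and Aats-ala-m, the mitochondrial alanyl-tRNA synthetase, with -0.02.

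The gene with the highest level showed little change in CPM. Aats-asp stood at 150.1, 134.0 and 153.3 CPM against 160.5, 148.1 and 149.2 CPM, with a log2 fold change of 0.07 and a 95% interval from -0.20 to 0.33 (edgeR adjusted p = 0.686). Aats-met, at 3.97, 3.64 and 4.46 CPM against 5.27, 3.94 and 3.42 CPM, had the same size of estimate but a wider interval, from -0.40 to 0.55 around 0.07 (adjusted p = 0.800). In Aats-met the crol-KO-labelled libraries lay on both sides of the wild-type-labelled ones. Aats-asn stood at 67.7, 59.1 and 78.5 CPM against 76.2, 90.8 and 86.1 CPM (log2 fold change 0.30, adjusted p = 0.132), with only wild-type replicate 3 inside the range of the other group. The spread between replicates had a median coefficient of variation of 8.59% in the wild-type-labelled libraries and 5.32% in the crol-KO-labelled ones, and was above 15% in both groups only for Aats-tyr-m, the mitochondrial tyrosyl-tRNA synthetase.

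**Figure D3:**
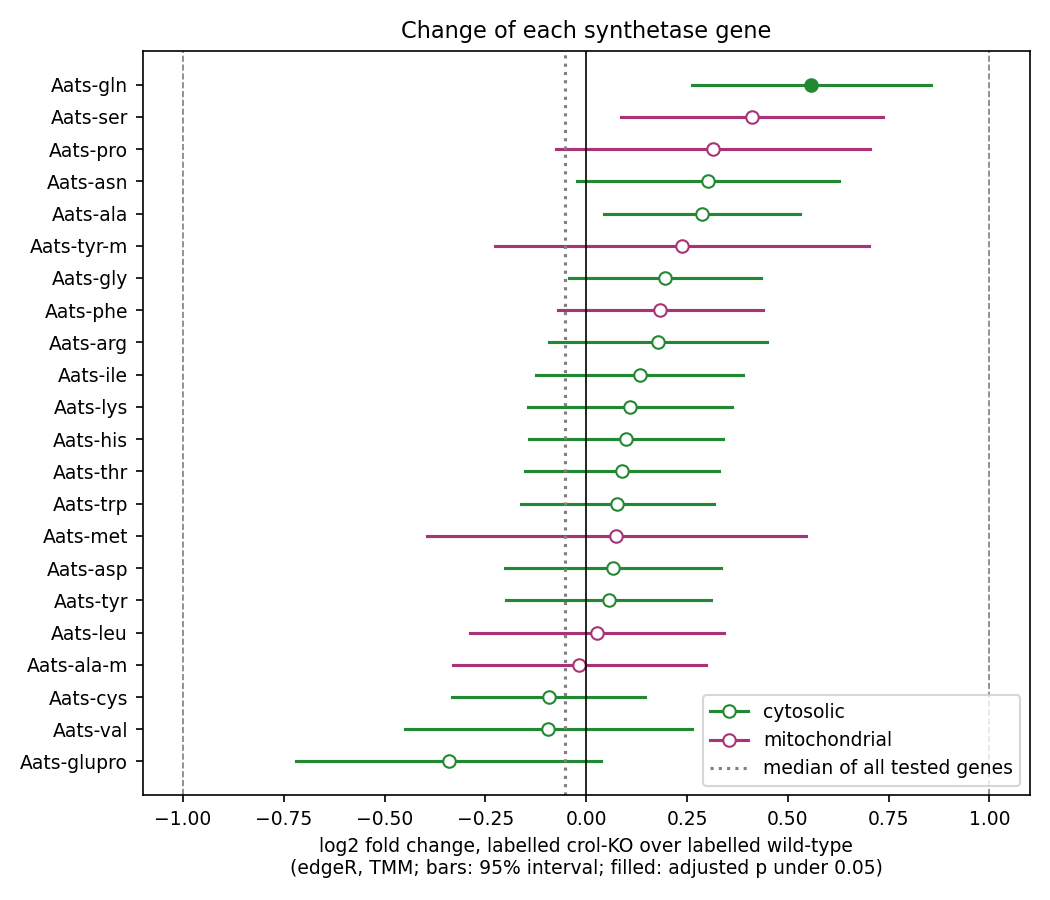
Log2 fold change of each synthetase gene (labelled crol-KO over labelled wild-type, edgeR after TMM scaling) with its 95% interval; the filled point passed the test, dashed lines mark a change of 1 and the dotted line the median of all tested genes at -0.05. All 22 intervals lie within the dashed lines, and only Aats-gln is filled.

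Summed over the 22 genes, the direction depended on the scale. As a share of all counts the synthetases took 0.112%, 0.120% and 0.106% in the wild-type-labelled libraries and 0.0948%, 0.0818% and 0.0857% in the crol-KO-labelled ones, so that the mean fell by 22.3%. Their summed TPM was 463.1, 531.8 and 422.1 against 373.3, 289.6 and 316.5, a mean lower by 30.9%, with 430.6 against 295.9 for the cytosolic and 41.6 against 30.5 for the mitochondrial genes. After TMM scaling their summed CPM was 938.3, 912.4 and 999.0 against 1046, 1052 and 1004, a mean higher by 8.85%. None of these sums overlapped between the groups (two-sided exact permutation test p = 0.1 each, the smallest that 3 libraries against 3 allow).

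Most genes moved with the synthetases between these scales. In TPM, 17 of the 22 synthetase genes were lower throughout the crol-KO-labelled libraries than in any wild-type-labelled one, as were 60.6% of all tested genes. No synthetase gene was higher throughout, as 4.75% of all tested genes were. With library totals alone in place of TMM factors, the median log2 fold change was -0.38 for the synthetases and -0.54 for all tested genes, and with limma on log2(TPM + 1) it was -0.49 and -0.48. Set against the median of all genes, the synthetase median was 0.16 higher with TMM factors and with library totals only, 0.01 lower with limma on log2(TPM + 1) and 0.11 higher with limma on log2(TPM + 0.1). With library totals only and with limma on log2(TPM + 1), 11 and 12 of the synthetase genes, respectively, passed the test as lower, beside 45.2% and 46.8% of all tested genes. The 20 genes with the most counts took 20.7% to 23.5% of counts in the wild-type-labelled libraries and 28.9% to 30.8% in the crol-KO-labelled ones, and the 6 midgut markers alone summed to 35960 to 39370 TPM and to 62930 to 75180 TPM. The part of these abundant transcripts in the lower shares was not tested.

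**Figure D4:**
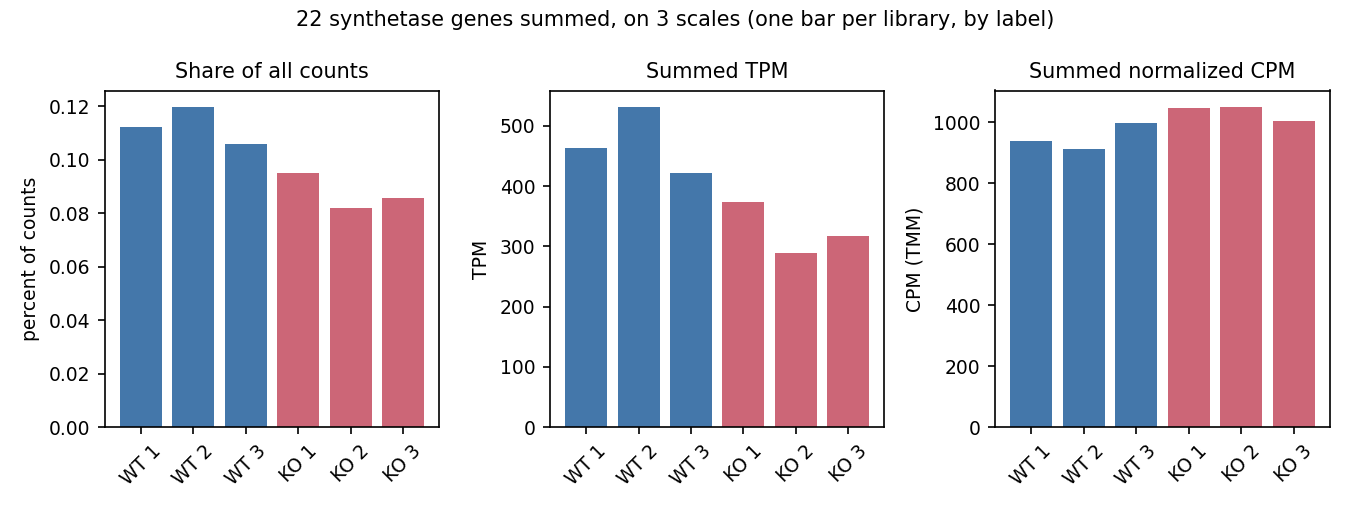
The 22 synthetase genes summed in each library (bars, from 0) as percent of all counts, as TPM and as TMM-normalized CPM. The libraries labelled crol-KO (KO) lie below the wild-type-labelled ones (WT) on the first and second scale and above them on the third.

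Of the synthetase genes, 13 had more than 1 annotated transcript, for which the tables give a length weighted by isoform. Only Aats-glupro separated the groups in this length. It was 4780.0, 4821.3 and 4721.4 bases in the wild-type-labelled libraries and 4621.2, 4370.0 and 4559.2 bases in the crol-KO-labelled ones, so that the mean dropped by 257.4 bases (exact permutation test p = 0.1). Among all 6400 tested genes with several transcripts, 13.1% were likewise shorter without overlap and 11.8% longer. Across genes, longer genes had lower fold changes, with a Spearman rho between length and log2 fold change of -0.41 over the 22 synthetases and -0.37 over all tested genes, in the same libraries. With the trend over length removed, Aats-gln, Aats-ala, Aats-gly and Aats-ile, for isoleucine, passed the test as higher, beside 16.7% of all tested genes (32.8% in either direction), and Aats-glupro changed sign to 0.16.

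For 16 pairs of genes, a cytosolic enzyme or subunit could be set against the mitochondrial enzyme for the same amino acid within each library, by the ratio of their TPM. Of these pairs, 3 lie within the 22 genes and 13 use a synthetase gene listed under a CG number. The cytosolic gene was higher in every library in 15 pairs. The exception was the cytosolic beta subunit of phenylalanyl-tRNA synthetase, at 0.8218 to 1.082 times Aats-phe. The ratio was 6.90, 7.41 and 9.52 for Aats-ala over Aats-ala-m in the wild-type-labelled libraries and 9.28, 10.6 and 9.21 in the crol-KO-labelled ones, with overlap.

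In 3 of the 16 pairs the ratio separated the groups. For proline, Aats-glupro over Aats-pro was 4.03, 6.94 and 4.70 against 3.41, 3.69 and 3.29. For valine, Aats-val over ValRS-m was 6.22, 6.41 and 6.50 against 4.65, 4.19 and 3.72. For asparagine, Aats-asn over AsnRS-m ran from 11.76 to 14.93 against 16.65 to 21.21. These 3 differences are given as values. The exact permutation test gave p = 0.1 each (0.533 after adjustment over the 16 pairs), the smallest it can give for 3 libraries against 3, so that it could not pass, and no share of separated ratios over other pairs of genes was computed. The ratios were not adjusted for the trend over length. In the wild-type-labelled libraries the mean length was 4774 bases for Aats-glupro and 1511 for Aats-pro. With the trend removed, their log2 fold changes were 0.16 and 0.20.

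**Figure D5:**
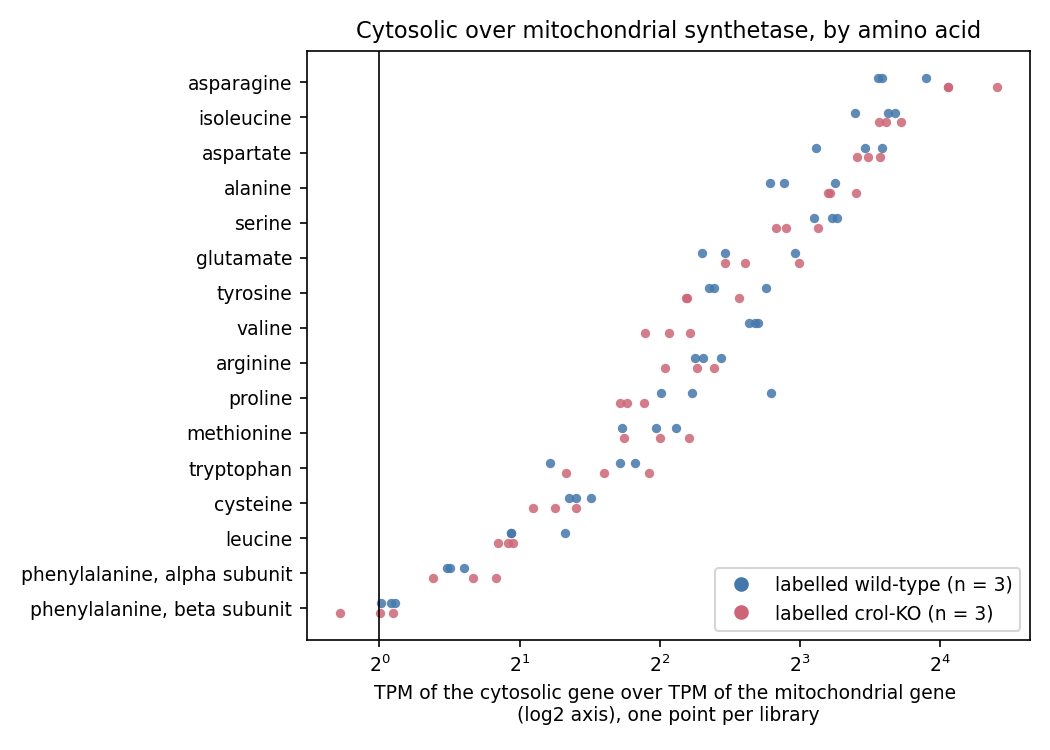
Ratio of the TPM of the cytosolic gene to that of the mitochondrial gene for the same amino acid (log2 axis), 1 point per library, for 16 pairs. Points lie to the right of a ratio of 1 except in the pair of the phenylalanine beta subunit, and the groups do not overlap for asparagine, valine and proline. The ratios are not adjusted for the trend of fold change over gene length.

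The synthetases that the symbol rule missed gave a like picture. None of the 5 other cytosolic genes passed the test (median log2 fold change 0.11). Of the 8 other mitochondrial genes 1 was higher, ValRS-m, at 3.912, 5.004 and 4.124 CPM against 6.48, 5.51 and 6.59 CPM (log2 fold change 0.51, adjusted p = 0.0475). Among the 22 genes, 6 have mammalian counterparts in the multisynthetase complex, and of these Aats-gln was the 1 that passed. The cytosolic LeuRS and MetRS genes, of the same complex in mammals but outside the symbol rule, did not pass (-0.13 and 0.11). In the list of scaffold proteins AIMP1 was higher with a log2 fold change of 0.52 (adjusted p = 0.0357), as 1 of 3 genes. Among all tested genes 15.3% passed as higher. On TPM the groups overlapped for both ValRS-m and AIMP1.

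The genes around charged tRNA were counted from lists chosen by textbook role. Of 7 cytosolic elongation factors 1 was higher, the eIF5A gene (eEF5 in the annotation; 0.74, adjusted p = 0.0283), and 1 was lower, eEF1alpha2, a form of the factor that brings charged tRNA to the ribosome (-0.41, adjusted p = 0.0229). In CPM, 6 of the 7 separated the groups in either direction, beside 50.2% of all tested genes. The median log2 fold change of the 7 was 0.43. Of 3 mitochondrial elongation factors 1 was higher, mEFTu1 (0.39, adjusted p = 0.0306). Of 9 tRNA modification genes 2 were higher, the methyltransferase gene Trm7-32 (0.85, adjusted p = 0.00502) and wuho (0.53, adjusted p = 0.037), and none was lower. Beside these counts, 15.3% of all tested genes were higher and 17.8% lower. On TPM the groups overlapped for the eIF5A gene, mEFTu1, Trm7-32 and wuho, but not for eEF1alpha2, the lower gene.

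More of the genes of the amino acid response and of amino acid synthesis were lower than higher. Cells lacking charged tRNA signal through the kinase Gcn2 and the ATF4 homolog crc, and in mammals ATF4 is known to induce synthetase genes. Of 11 response genes 1 was higher and 4 were lower, with a median log2 fold change of -0.45. The higher gene was crc, at 634.3, 538.2 and 728.3 CPM against 962.0, 1021 and 933.7 CPM (0.62, adjusted p = 0.0224). On TPM the groups overlapped for crc, with means of 370.1 and 363.7 TPM. The 4 lower genes were Sesn, a sestrin of the TORC1 pathway (-1.13, adjusted p = 0.00261), Nmdmc, a mitochondrial folate enzyme (-0.96, adjusted p = 0.0135), 4EHP, a cap-binding repressor of translation (-0.80, adjusted p = 0.0209), and the tribbles kinase gene trbl (-0.74, adjusted p = 0.0199). Of 12 amino acid synthesis genes none was higher and 4 were lower, among them CG11899 (-0.75, adjusted p = 0.0116) and Gdh, glutamate dehydrogenase (-0.52, adjusted p = 0.0307). These counts stand beside 15.3% of all tested genes higher and 17.8% lower.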

How the data were processed

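Whole-larva polyA RNA of 6 libraries was analysed. The authors trimmed reads with Trim Galore 0.6.1, aligned them to dm3 with STAR 2.7.3a and ran RSEM 1.3.2. Expected counts of each gene, with no scaling for depth, stand in the deposited tables beside the authors' TPM, which is scaled to transcript length and to 1000000 per library. The deposited FPKM values were not used. Whether a count stands for a read or a read pair was not settled. The study's own calls used featureCounts and DESeq2. Neither its featureCounts counts nor its calls were used here.

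After rounding, edgeR 4.0.16 (R 4.3.3) was run on the genes that reached 10 counts in 3 or more libraries (TMM, quasi-likelihood test, two-sided, Benjamini-Hochberg adjustment over all tested genes). Depth was 23637969 to 49236787 expected counts per library, and intervals rest on the spread between libraries. Groups came from sample titles and genotype fields. Sample titles number the libraries of each group from 1 to 3, and the study's methods give 3 biological repeats. Alternatives were DESeq2 1.42.0, DESeq2 size factors, upper-quartile factors, other filters, limma 3.58.1 on log2(TPM + 1) or log2(TPM + 0.1), the replicate number as a block, removal of the lowess trend over length (span 0.3), each library left out and an adjusted p under 0.01. Library totals alone were added after seeing the data. Tests were checked on simulated counts with no broad shift in composition between the groups, so the choice of scaling was not checked.

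The synthetase genes and the lists were chosen with earlier results of these data known. Values per library are given for genes that passed the test and for the genes of highest and lowest TPM by rule. The rule fixed no others: Aats-ala, Aats-ser, Aats-asn, Aats-pro, Aats-glupro, Aats-val, Aats-cys and the overlapping genes were singled out after their values were seen, as were the pairs of synthetases and the list of other synthetases. Symbols were matched to Release 6 through transcript identifiers, 99.0% of table genes and all 22 synthetases, and since the files rest on dm3, no Release 6 position is printed.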

Additional observations from a re-analysis of the deposited data

How the results depend on the processing

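The number of synthetase genes that passed as higher was 1 in the reported fit, 3 with upper-quartile factors, 2 with DESeq2's test, 4 with the length trend removed, 2 with replicate block and length offset, 0 with either limma fit on TPM, with library totals only and at an adjusted p under 0.01, and 0 to 3 with a library left out (0 without wild-type replicate 1 or crol-KO replicate 2, 3 without wild-type replicate 3). The number that passed as lower was 0, but 12 and 14 with limma at a pseudocount of 1 and of 0.1 TPM and 11 with library totals only. Over all tested genes, 1900 passed as higher and 2212 as lower in the reported fit, 449 and 5818 or 462 and 6124 with limma at the larger and the smaller pseudocount, 670 and 5618 with library totals only, 829 and 902 at an adjusted p under 0.01, and 1012 to 2252 and 1101 to 2155 with a library left out, lowest without crol-KO replicate 3 and also over 1.5 times lower without wild-type replicate 1 (1104 and 1223) or crol-KO replicate 2 (1126 and 1255).

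The median log2 fold change of all synthetase genes was 0.22 with upper-quartile factors, -0.49 and -0.56 with limma at the larger and the smaller pseudocount, 0.17 with the length trend removed, 0.18 with replicate block and length offset, -0.38 with library totals only, and 0.094 to 0.2101 with a library left out, highest without wild-type replicate 3. In the same order of settings the cytosolic median was 0.22, -0.54, -0.56, 0.17 with replicate block and length offset and -0.39, with 0.0771 to 0.1931 with a library left out, and the mitochondrial median was 0.30, -0.39, -0.49 and -0.30, with 0.10 to 0.30. Taken minus the median of all tested genes, the synthetase median of 0.16 became -0.0104 with limma at the larger and 0.11 at the smaller pseudocount and ranged from 0.065 (without wild-type replicate 2) to 0.209 with a library left out.

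With limma at the larger pseudocount, the smaller one and library totals only, the log2 fold change was -0.37, -0.38 and -0.20 for Aats-ala, -0.35, -0.36 and -0.18 for Aats-asn, -0.60, -0.61 and -0.42 for Aats-asp, -0.39, -0.58 and -0.40 for Aats-met, -0.25, -0.35 and -0.16 for Aats-pro and -0.18, -0.20 and -0.0624 for Aats-ser. Aats-gln was at -0.11 in both limma fits and at 0.08 (adjusted p = 0.594) with library totals only. Aats-cys was at 0.0249 with upper-quartile factors, at 0.0031 with replicate block and length offset and at -0.1133 to 0.0174 with a library left out. With both limma fits and library totals only, Aats-cys was at -0.71, -0.76 and -0.58 (adjusted p = 0.00826, 0.00712 and 0.006) and Aats-glupro at -0.84, -0.91 and -0.84 (adjusted p = 0.027, 0.0222 and 0.0208), all lower. Aats-glupro was at 0.16 and 0.17 with the length trend removed, without and with the block. Aats-val was at 0.0277 with upper-quartile factors, at 0.18 and 0.19 with the length trend removed, without and with the block, and at -0.2147 to 0.0614 with a library left out. Aats-met ranged from -0.12 to 0.22 with a library left out. The cause of these changes was not tested.

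The replicate numbers gave no sign of pairing, since deviations of same-numbered libraries correlated at 0.0035, -0.29 and -0.05. Their mean was -0.11. The mean for differently numbered libraries was 0.06, which largely follows from the first mean because values were centred within each group. So few values cannot settle whether the libraries were paired. With the replicate block Aats-gln kept its call (0.56, adjusted p = 0.0473) and 1 synthetase gene passed, while 1256 of all genes passed as higher. The widest 95% intervals were those of Aats-met, at 69 to 205 counts per library, and Aats-tyr-m, at 174 to 462. Aats-pro, at 91 to 197 counts, had a narrower interval than either.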
